A study of Mus musculus with 18 samples.

Results

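The 10 enzymes described here make, desaturate, activate or place long-chain and polyunsaturated fatty acids, and were taken by name from the 16245 genes of a liver expression table. They are the elongases Elovl1, Elovl2, Elovl3 and Elovl5, the desaturases Fads1, Fads2 and Scd2, the acyl-CoA synthetases Acsl1 and Acsl5, and the lysophospholipid acyltransferase Lpcat3. No rule on their levels was used, but the choice was made with earlier results of these data known. All 10 were in the table, and all 10 had an adjusted p in each of the 3 comparisons.

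Livers came from 18 wild-type mice, 6 in each of 3 groups. The labels give the strain as C57BL/6, and the study's methods describe male C57BL/6J mice. All mice had been moved at 8 weeks of age to a NASH diet, which is rich in fat and fructose and gives a fatty, inflamed and scarred liver, and to housing at about 29 °C, and were kept singly. The GDF15 group received recombinant GDF15, a hormone released by stressed cells that suppresses appetite, under the skin each morning. The vehicle group received the carrier solution, and the pair-fed group had its food held to the intake of the GDF15 group. GDF15 against pair-fed thus compares livers at matched food intake. The labels list several GDF15 doses for the study and do not assign a dose to each liver. Each column of the table is 1 mouse, and each library held 16508864 to 35301853 estimated counts.

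Dietary linoleic and alpha-linolenic acid become arachidonic and docosahexaenoic acid by alternating steps of desaturation and elongation in the endoplasmic reticulum, and the liver is the main site of this work. The products are activated to acyl-CoA, placed into membrane phospholipids, stored as triglyceride, shortened in peroxisomes or turned into signalling lipids. Transcription of these enzymes is known to respond to the sterol regulatory factor SREBP-1c (Srebf1), to the oxysterol receptor LXR (Nr1h3) and to the fatty acid receptor PPARalpha (Ppara).

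Against vehicle, GDF15-treated livers held less Scd2, Elovl5 and Elovl1 and more Elovl3, Elovl2 and Acsl1 RNA, while Fads1, Fads2, Acsl5 and Lpcat3 did not pass the test. A gene was called when its adjusted p in DESeq2, a count model fitted over all genes, was under 0.05. By this rule 3 of 10 enzymes were lower, where 17.5% of the 14667 genes tested were lower, and 3 were higher, where 15.8% were higher. With an absolute log2 fold change above 1 as well, the threshold that the study's methods give for liver and that 6.27% of genes passed, Scd2 was called lower and Elovl3 higher. The median log2 fold change of the 10 enzymes was -0.09, beside 0.00 over all genes tested.

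Against pair-fed livers, Scd2, Fads2 and Elovl1 were lower and Elovl2 was higher in GDF15-treated livers. These were 3 lower and 1 higher of the 10, beside 13.8% and 13.3% of the 14353 genes tested, and 0 passed with the fold rule, beside 3.37% of genes. The median log2 fold change of the 10 was -0.10, beside 0.00 over all genes. The 2 GDF15 comparisons share the 6 GDF15 libraries, so that their calls are not independent. Elovl2, Scd2 and Elovl1 were called in both.

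Pair-fed livers differed from vehicle in none of the 10 enzymes. DESeq2 called 0% of the 16242 genes tested in that comparison (0 by edgeR as well, and 718 at an unadjusted p under 0.05), and the lowest adjusted p of the enzymes was 0.998. Elovl1 alone of the 10 had an unadjusted p under 0.05 there. Its log2 fold change, pair-fed over vehicle, was 0.13 (95% interval 0.03 to 0.22).

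**Figure D1:**
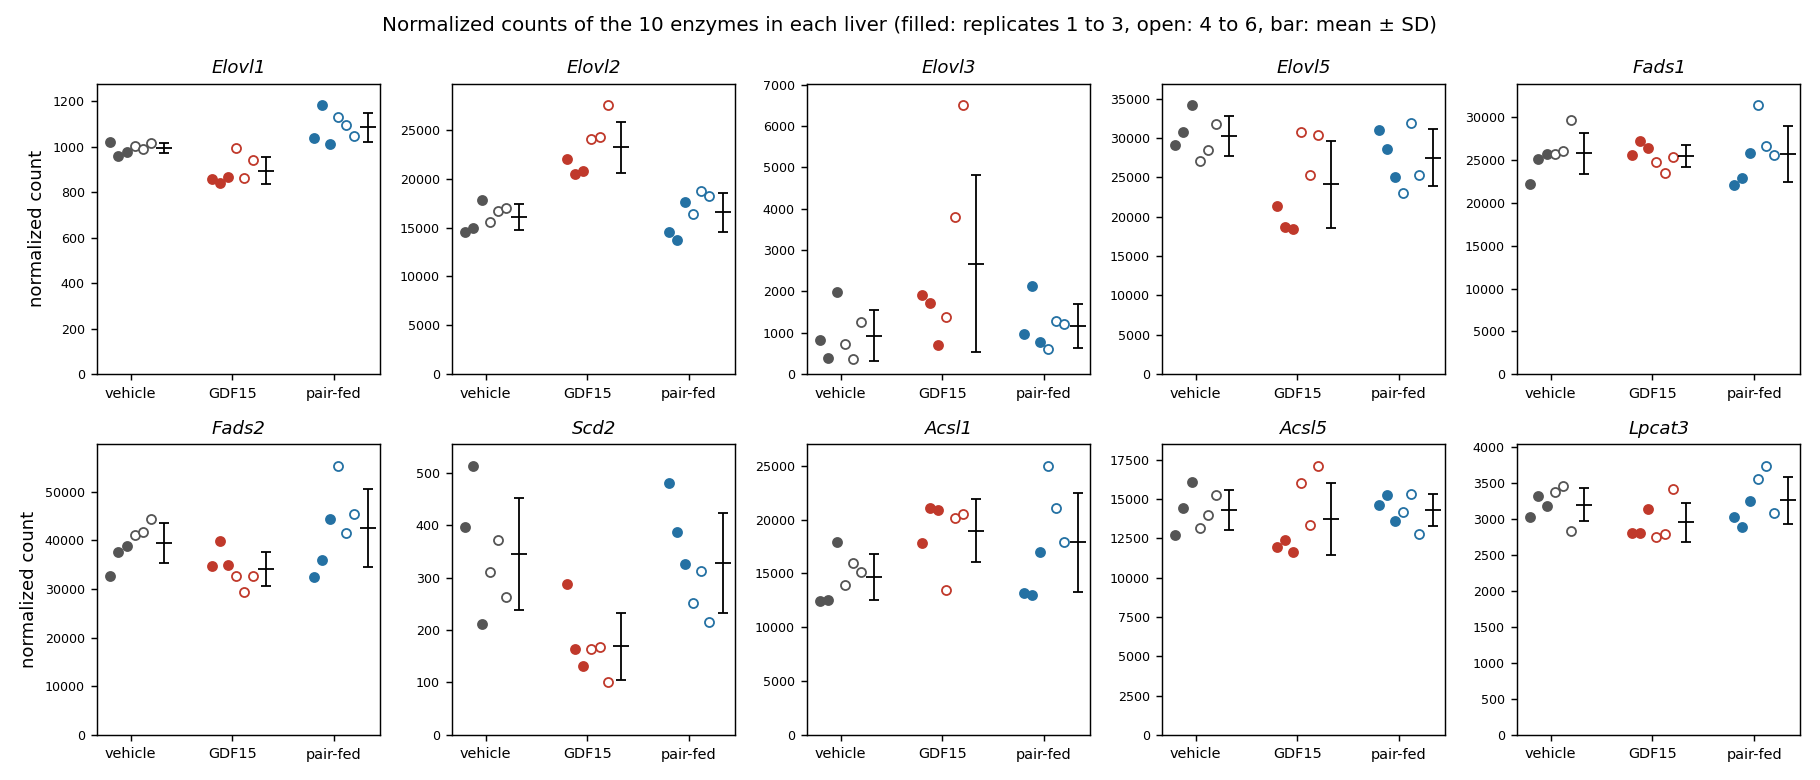
Normalized counts (y axis, from 0, a separate scale for each enzyme) of the 10 enzymes in each of 18 livers by group, with filled points for replicates 1 to 3, open points for replicates 4 to 6 and the mean ± SD as a bar. For Elovl2 the 6 GDF15 livers sit between 20512 and 27549, above all 12 other livers. The GDF15 livers split by replicate number for Elovl2, Elovl5, Fads1, Fads2 and Acsl5, the vehicle livers for Fads1 and Fads2, and the pair-fed livers for Scd2 and Acsl1.

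**Figure D2:**
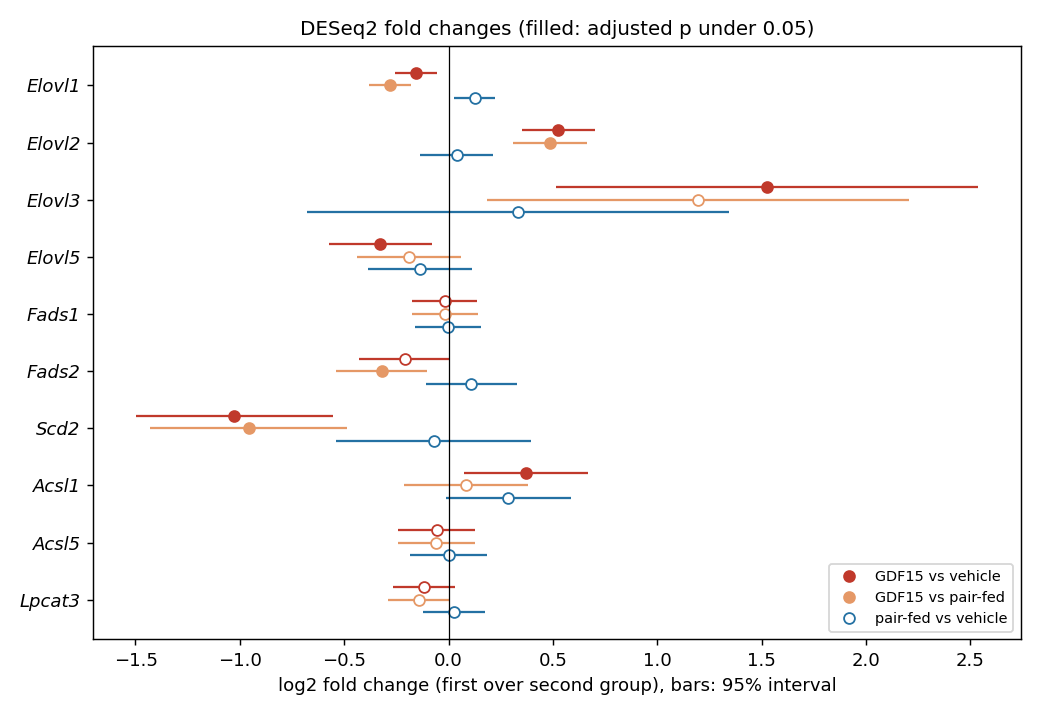
Log2 fold changes (x axis, first over second group) of each enzyme in the 3 comparisons with 95% intervals, filled where the DESeq2 adjusted p was under 0.05. Scd2 lies near -1 and Elovl2 near 0.5 in both GDF15 comparisons, Elovl3 has the widest intervals, and none of the pair-fed against vehicle points is filled.

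Levels differed widely between the enzymes. Compared per length, as TPM (transcript counts scaled for length and library total) computed from the counts and the annotated transcript lengths, the vehicle order ran from Elovl5 (3280 ± 229 TPM, SD, n = 6) through Acsl5 (2023 ± 119), Fads2 (1552 ± 124), Acsl1 (1500 ± 153), Fads1 (882 ± 62.3), Elovl2 (292 ± 11.6), Lpcat3 (97.1 ± 8.40), Elovl1 (53.2 ± 3.11) and Elovl3 (36.3 ± 22.5) to Scd2 (4.43 ± 1.54). The means of Fads2 and Acsl1, and those of Elovl1 and Elovl3, lay within 1 SD of each other. The length taken for a gene was the median of its annotated protein-coding transcripts, short ones included. The order depends on this choice. By mean normalized count in vehicle livers, without length, Fads2 (39375) stood above Elovl5 (30250). Fads1 (25783) and Elovl2 (16117) then stood above Acsl1 (14643) and Acsl5 (14274). Scd1, the main delta-9 desaturase of liver and not among the 10, stood at 11293 ± 2499 TPM.

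Elovl2 and Elovl5 are the elongases of polyunsaturated fatty acids, Elovl5 acting earlier in the chain and Elovl2 on the longer substrates that lead to docosahexaenoic acid. Their genes lie at chr13:41182381-41220405 (minus strand, GRCm38) and chr9:77917364-77984519 (plus strand). Their upstream sequences are shown because their transcripts moved apart, and that of Acsl5 (chr19:55251938-55297720, plus strand) because it moved together with Elovl5 from liver to liver. The stretches are from RefSeq, build GRCm38.p6, read 5′ to 3′ toward the start site and cut before the first annotated exon base, at chr13:41220406-41220653 (minus strand), chr9:77917115-77917363 and chr19:55253119-55253368 (both plus). The Acsl5 stretch precedes a RefSeq start inside the annotated gene. Capitals mark matches, on either strand, to GGGCGG (a binding motif of SP1), CCAAT (NF-Y; ATTGG on the other strand), CACGTG (an E-box) and TCACNCCAC (SREBP).
Elovl2: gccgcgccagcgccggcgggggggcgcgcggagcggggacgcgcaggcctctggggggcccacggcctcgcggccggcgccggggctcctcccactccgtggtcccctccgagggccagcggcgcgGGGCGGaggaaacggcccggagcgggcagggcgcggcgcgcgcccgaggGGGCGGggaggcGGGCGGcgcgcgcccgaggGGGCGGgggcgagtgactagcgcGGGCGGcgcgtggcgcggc
Elovl5: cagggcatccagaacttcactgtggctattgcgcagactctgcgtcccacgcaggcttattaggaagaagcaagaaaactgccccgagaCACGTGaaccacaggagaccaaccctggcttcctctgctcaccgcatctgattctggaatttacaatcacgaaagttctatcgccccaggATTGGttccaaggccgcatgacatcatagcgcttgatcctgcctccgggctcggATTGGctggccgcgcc
Acsl5: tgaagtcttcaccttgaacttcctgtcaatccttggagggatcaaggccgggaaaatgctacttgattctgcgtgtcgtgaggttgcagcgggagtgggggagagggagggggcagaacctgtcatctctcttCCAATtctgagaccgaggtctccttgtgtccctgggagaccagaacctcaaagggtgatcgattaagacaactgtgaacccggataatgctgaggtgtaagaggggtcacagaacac
The Elovl2 stretch is 87.1% G and C and holds GGGCGG 5 times. The Elovl5 stretch is 55.8% G and C and holds CCAAT 2 times and CACGTG once, with no overlap between them, and the Acsl5 stretch holds CCAAT once. Of 32851 RefSeq windows of 300 bases around gene starts, 35.7% hold GGGCGG, 37.4% CCAAT, 7.15% CACGTG and 1.24% TCACNCCAC. Windows were at hand for 7 of the 10 enzymes, and TCACNCCAC was found in 1 of them, in a second window of Acsl1. A match is a run of letters and not a measured binding site.

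By normalized count, Elovl2 was higher in every GDF15-treated liver than in any other. Its normalized count was 14523, 16155 and 17875 (lowest, median and highest) in vehicle livers, 20512, 23028 and 27549 in GDF15 livers and 13761, 17025 and 18742 in pair-fed livers. Such a pattern, with all 6 GDF15 livers above all 12 others, was seen for 3.62% of the 13207 genes with enough counts, and for no other of the 10 enzymes. The log2 fold change was 0.53 (SE 0.09) against vehicle, a fold of 1.44 (DESeq2 adjusted p = 1.37e-07), and 0.49 (SE 0.09) against pair-fed (adjusted p = 1.81e-06). The call was made in both comparisons in every alternative fit run, total-count scaling and each left-out library included.

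Elovl5 was lower in GDF15 than in vehicle livers, and its fall lay in some of the mice. Its normalized count was 27128, 29940 and 34183 in vehicle livers, 18382, 23305 and 30731 in GDF15 livers and 23016, 26978 and 31950 in pair-fed livers, so that the groups overlapped, with 4 of 6 GDF15 livers below every vehicle liver. The log2 fold change was -0.33 (SE 0.13, DESeq2 adjusted p = 0.0342) against vehicle and -0.19 (SE 0.13, adjusted p = 0.277) against pair-fed. The call against vehicle was lost without any of GDF15 replicates 1, 2 or 3 (adjusted p = 0.0813, 0.0964 and 0.0981) or any of vehicle replicates 1, 2, 3 or 6 (adjusted p up to 0.0844).

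GDF15 replicates 1 to 3 held 18382 to 21364 normalized counts of Elovl5 and replicates 4 to 6 held 25245 to 30731, the latter within the range of the vehicle livers apart from 1 value. Fitted on replicates 1 to 3 of all groups, Elovl5 had a log2 fold change of -0.68 against vehicle (DESeq2 adjusted p = 3.93e-08) and -0.53 against pair-fed (2.63e-05). With replicates 4 to 6 these were -0.02 (0.951) and 0.11 (0.659). The labels name no batch, and the difference between the sets was not tested. The GDF15 libraries of replicates 1 to 3 held 21050932 to 25001486 counts and those of 4 to 6 held 16508864 to 19108435. Depth in the pair-fed group differed the other way, at 17180057 to 17926397 and 25047723 to 35301853. The part of depth in the split was not tested.

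Measured within each library, the balance of the pair moved toward Elovl2. For each 100 Elovl5 counts there were 48.5, 53.0 and 58.7 Elovl2 counts (lowest, median and highest) in vehicle livers, 78.2, 99.7 and 114 in GDF15 livers and 46.8, 64.5 and 72.1 in pair-fed livers. All 6 GDF15 livers lay above all others. The log2 ratio was higher by 0.88 against vehicle and by 0.70 against pair-fed (each p = 0.00216 by an exact two-sided permutation test, which cannot give a smaller value here, and adjusted p = 0.00812 over 15 ratio tests), and by 0.18 in pair-fed against vehicle livers (exact p = 0.186, adjusted p = 0.233). A ratio within a library does not depend on how libraries are scaled.

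Fads1, the delta-5 desaturase, and Fads2, the delta-6 desaturase that makes the first and slowest step of the chain, lie side by side on chromosome 19 (chr19:10182888-10196877, plus strand, and chr19:10062765-10101746, minus strand). Fads2 was lower in GDF15 than in pair-fed livers, and Fads1 did not pass the test in any comparison. Fads2 held 32578, 39926 and 44475 normalized counts (lowest, median and highest) in vehicle livers, 29382, 33704 and 39820 in GDF15 livers and 32435, 42970 and 55298 in pair-fed livers. The 3 ranges overlapped. Its log2 fold change was -0.32 (SE 0.11, DESeq2 adjusted p = 0.0184) against pair-fed and -0.21 (SE 0.11, adjusted p = 0.131) against vehicle. The first call was lost without GDF15 replicate 5 (adjusted p = 0.0553) or pair-fed replicate 4 (adjusted p = 0.0643), and against vehicle a fit of the 12 compared libraries alone gave an adjusted p of 0.0449. Fitted on replicates 1 to 3, the log2 fold change was -0.04 against pair-fed (DESeq2 adjusted p = 0.856) and 0.01 against vehicle (0.969). With replicates 4 to 6 these were -0.58 (1.01e-05) and -0.43 (0.00195).

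Fads1 held 22174, 25766 and 29734 normalized counts in vehicle livers, 23505, 25460 and 27182 in GDF15 livers and 22135, 25705 and 31427 in pair-fed livers. Its log2 fold change was -0.02 against vehicle, with a 95% interval of -0.17 to 0.14, and -0.02 against pair-fed, with an interval of -0.17 to 0.14. Within libraries, Fads1 rose relative to Fads2. There were 62.7, 66.5 and 68.1 Fads1 counts for each 100 Fads2 counts in vehicle livers, 68.3, 75.7 and 80.0 in GDF15 livers and 56.4, 61.0 and 68.2 in pair-fed livers. All 6 GDF15 livers lay above all others, although the lowest of them (68.26) and the highest pair-fed (68.25) and vehicle (68.06) livers nearly touched. The log2 ratio was higher by 0.20 against vehicle and by 0.30 against pair-fed (each exact permutation p = 0.00216, adjusted p = 0.00812).

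**Figure D3:**
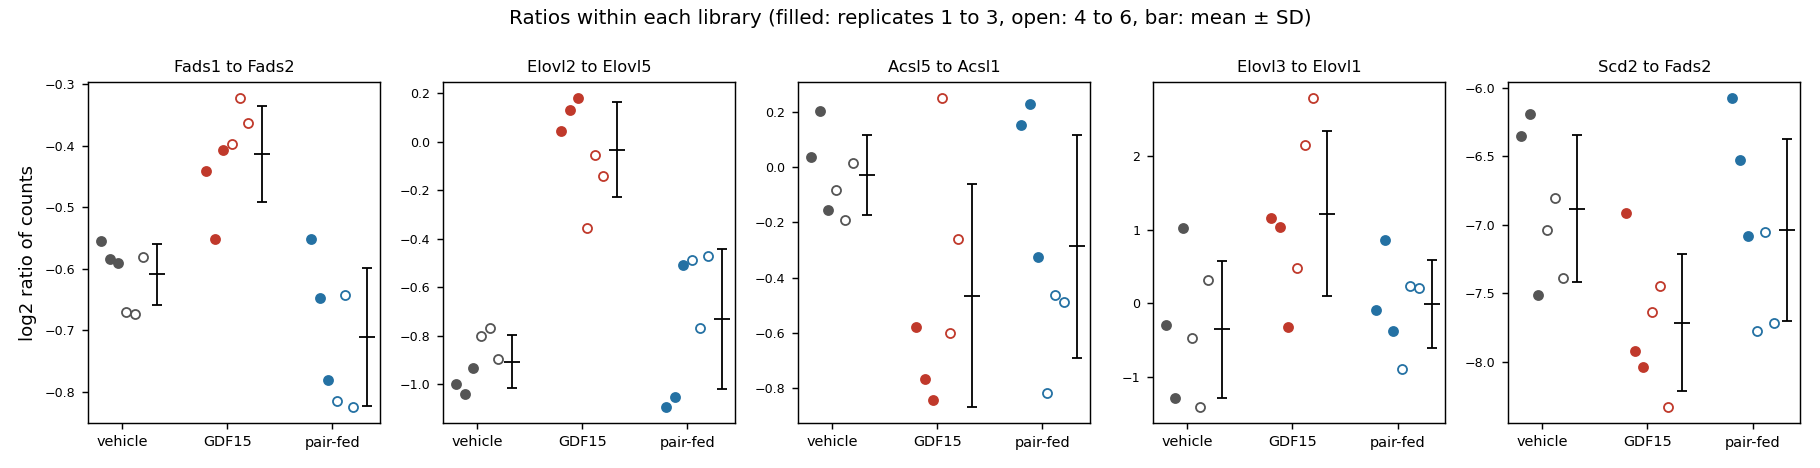
Log2 ratios of counts (y axis, a separate scale for each pair) of 5 enzyme pairs within each of 18 libraries by group, with filled points for replicates 1 to 3, open points for replicates 4 to 6 and the mean ± SD as a bar. In the Fads1 to Fads2 and the Elovl2 to Elovl5 panels all 6 GDF15 livers lie above the other 12, and in the other 3 panels the groups overlap.

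Scd2, a delta-9 desaturase isoform that makes monounsaturated fatty acids and is better known from brain than from adult liver, was lower in GDF15 livers by about the same fold against either control. It lies at chr19:44293674-44306864 (plus strand). Its normalized count was 212, 342 and 514 (lowest, median and highest) in vehicle livers, 100, 163 and 288 in GDF15 livers and 215, 319 and 480 in pair-fed livers. GDF15 replicate 1, at 288, was the 1 treated liver within the control ranges, and the other 5 lay below every vehicle and every pair-fed liver. The log2 fold change was -1.03 (SE 0.24, DESeq2 adjusted p = 0.000198) against vehicle and -0.96 (SE 0.24, adjusted p = 0.000759) against pair-fed. Both calls were kept in fits of replicates 1 to 3 (log2 fold change -0.94 and -1.03) and of replicates 4 to 6 (-1.14 and -0.85).

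Scd2 stood apart from the liver desaturases in what it moved with. Its counts were 0.0233% to 0.124% of those of Scd1 over the vehicle and GDF15 livers, and 6.86% of its 31-base stretches are also found in other genes, most of them in Scd3, so that the authors' counting could have split some reads. Within groups its level deviated together with the summed level of macrophage and leukocyte markers (Pearson r = 0.79 over 18 livers), stellate cell and fibroblast markers (r = 0.80) cholangiocyte markers (r = 0.83) and adipocyte markers (r = 0.605), and against that of hepatocyte markers (r = -0.67), while r with endothelial markers was 0.02. Other enzymes went with marker sums as well. For Elovl2, r was 0.72 with hepatocyte, -0.74 with macrophage and leukocyte and -0.74 with adipocyte markers. For Fads1 it was 0.76 with hepatocyte markers. For Acsl5 it was -0.72 with macrophage and leukocyte and -0.75 with adipocyte markers. These values are descriptions over livers that share libraries and scaling. The Scd2 to Fads2 log2 ratio was lower by 0.83 in GDF15 against vehicle livers, and this did not pass after adjustment (exact permutation p = 0.0238, adjusted p = 0.0595).

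The marker lists themselves differed between groups. Their calls stand beside 17.5% lower and 15.8% higher of all genes against vehicle and 13.8% and 13.3% against pair-fed. The 10 macrophage and leukocyte markers summed to 5674 to 11257 normalized counts in vehicle livers, 3024 to 6565 in GDF15 livers and 5657 to 9396 in pair-fed livers, with 9 of 10 called lower against vehicle and 7 against pair-fed. The 10 stellate cell and fibroblast markers summed to 8662 to 15722, 4196 to 6235 and 7577 to 13103, with 9 and 8 called lower. The 8 cholangiocyte markers summed to 2389 to 8735, 1045 to 2126 and 2177 to 6101, with 7 and 1 called lower. The 8 endothelial markers summed to 2964 to 4022, 2254 to 4067 and 3303 to 4375. Of these, 1 was called lower and 1 higher against vehicle, and 2 lower against pair-fed. The 7 adipocyte markers in the table summed to 3283 to 6347 in vehicle livers, 585 to 2188 in GDF15 livers and 2615 to 3958 in pair-fed livers. Of the 4 that were tested, Cfd, Cidec and Plin4 were called lower and Adrb3 higher in each GDF15 comparison, and most of the sum was Cidec and Plin4, lipid droplet genes that fatty hepatocytes also express. Adipoq, Plin1 and Retn had means under 3 in every group. The 7 hepatocyte markers in the table summed to 1530330 to 1933580, 2163702 to 2508165 and 1402535 to 2111251, with 5 called higher in each GDF15 comparison. In bulk tissue fewer cells of a type and less RNA per cell cannot be told apart. The part of cell content in the fall of Scd2, in the rise of Elovl2 or in the other enzymes was not tested.

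Elovl1, which lengthens saturated and monounsaturated acids to very long chains for sphingolipids, was slightly lower in GDF15 livers. The gene lies at chr4:118428093-118432953 (plus strand). Its normalized count was 961, 995 and 1018 (lowest, median and highest) in vehicle livers, 842, 864 and 994 in GDF15 livers and 1012, 1071 and 1182 in pair-fed livers. All 6 GDF15 livers lay below all 6 pair-fed livers, as for 5.6% of the 13207 genes with enough counts, and 5 of 6 lay below every vehicle liver. The log2 fold change was -0.28 (SE 0.05, DESeq2 adjusted p = 1.23e-06) against pair-fed and -0.15 (SE 0.05, adjusted p = 0.0118) against vehicle. With 3 replicates a group the call against vehicle was lost (adjusted p = 0.0965 for replicates 1 to 3 and 0.441 for replicates 4 to 6), and against pair-fed it was lost with replicates 4 to 6 (0.0522).

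Elovl3, which lengthens saturated and monounsaturated acids and is known in liver for strong rhythms over the day and differences between the sexes, had the largest fold change and the widest spread of the 10. It lies at chr19:46131897-46135694 (plus strand). Its normalized count was 370, 773 and 1986 (lowest, median and highest) in vehicle livers, 693, 1820 and 6503 in GDF15 livers and 607, 1090 and 2134 in pair-fed livers. GDF15 replicates 5 and 6 (3805 and 6503) were the only treated livers above every control liver. The log2 fold change was 1.53 (SE 0.52, DESeq2 adjusted p = 0.0129) against vehicle and 1.20 (SE 0.52, adjusted p = 0.0678) against pair-fed. Without GDF15 replicate 6 the value against vehicle was 1.04 (adjusted p = 0.0904). Against pair-fed the call was gained without GDF15 replicate 3 (log2 fold change 1.40, adjusted p = 0.0237) or pair-fed replicate 2 (1.46, 0.0311). Replicates 1 to 3 gave 0.44 against vehicle (0.711) and replicates 4 to 6 gave 2.31 (0.00597).

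Acsl1 and Acsl5 join long-chain fatty acids to coenzyme A, the step that commits them to oxidation, storage or membranes. The Acsl1 gene lies at chr8:46471037-46536051 (plus strand). Acsl1 held 12414, 14525 and 17920 normalized counts (lowest, median and highest) in vehicle livers, 13457, 20317 and 21050 in GDF15 livers and 13034, 17481 and 24982 in pair-fed livers. 4 of 6 GDF15 livers lay above every vehicle liver, and none lay above every pair-fed liver. Its log2 fold change was 0.37 (SE 0.15, DESeq2 adjusted p = 0.0438) against vehicle, 0.09 (SE 0.15, adjusted p = 0.719) against pair-fed and 0.29 (SE 0.15, adjusted p = 0.998) in pair-fed against vehicle. Against pair-fed it was 0.47 in replicates 1 to 3 (DESeq2 adjusted p = 0.0207) and -0.24 in replicates 4 to 6 (0.373). Pair-fed against vehicle gave 0.01 and 0.50 in these sets, and neither passed. The GDF15 call against vehicle was lost with edgeR (adjusted p = 0.0652), with total-count scaling (0.238) and with replicates 4 to 6 (0.293). It was also lost in 11 of 18 fits that each left out a library (up to 0.109).

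Acsl5 held 12729, 14200 and 16091 normalized counts in vehicle livers, 11641, 12857 and 17096 in GDF15 livers and 12785, 14402 and 15325 in pair-fed livers. GDF15 livers lay on both sides of the controls, with 3 below and 1 above every vehicle liver. Its log2 fold change was -0.06 against vehicle (95% interval -0.24 to 0.13) and -0.06 against pair-fed (-0.24 to 0.13), and neither passed. Replicates 1 to 3 gave -0.26 against vehicle (DESeq2 adjusted p = 0.0383) and replicates 4 to 6 gave 0.13 (0.484), the same split by replicate number as for Elovl5. The Acsl5 to Acsl1 log2 ratio was lower by 0.44 in GDF15 against vehicle livers and did not pass after adjustment (exact permutation p = 0.0368, adjusted p = 0.0690). Acsl5 shares 7.45% of its 31-base stretches with other genes, mostly Zdhhc6 on the opposite strand, and Acsl1 shares 3.59%.

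Lpcat3 places polyunsaturated acids such as arachidonic acid into phosphatidylcholine and is a known LXR target. It lies at chr6:124663027-124704418 (plus strand). Its normalized count was 2833, 3246 and 3451 in vehicle livers, 2748, 2802 and 3419 in GDF15 livers and 2891, 3167 and 3734 in pair-fed livers. The groups overlapped, with 4 of 6 GDF15 livers below every control liver of either group. The log2 fold change was -0.12 against vehicle (SE 0.08, DESeq2 adjusted p = 0.239) and -0.14 against pair-fed (SE 0.08, adjusted p = 0.148). Without GDF15 replicate 6 the latter was -0.19 and passed (adjusted p = 0.0419). Lpcat3 shares 13.5% of its 31-base stretches with Emg1 on the opposite strand.

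Scaling by total counts in place of median-of-ratios size factors moved the median of all genes by -0.17 against vehicle and -0.16 against pair-fed on the log2 scale. 7 of the 10 enzymes were then called lower in each comparison, while Elovl2 stayed called higher in both and Elovl3 against vehicle. Over all genes the split was then 4946 lower and 722 higher against vehicle, in place of 2562 and 2323, and 4439 and 626 against pair-fed, in place of 1983 and 1911. Of the 100 other genes of the pathway given later, 35 were then lower and 7 higher against vehicle, in place of 23 and 13. Relative to the median gene the values stood close to those above, with Scd2 at -1.04 and Elovl2 at 0.53 against vehicle.

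Between livers of the same group, some of the enzymes deviated together. The deviations of log2 levels from the group means went together for Fads1 and Fads2 (Pearson r = 0.94, Spearman rho = 0.88) and for Fads1 and Acsl1 (r = 0.72). They also went together for Elovl5 and Acsl5 (r = 0.87, rho = 0.83), and both followed Elovl6, the elongase of palmitate (r = 0.83 and 0.82). Elovl5 and Fads2, which act in the same chain, deviated in opposite directions (r = -0.52). The pattern was not a clean split, since Elovl2 went with Acsl1 (r = 0.48) and with Acsl5 (r = 0.47) alike, and Scd2 had a negative r with each of the 9 other enzymes. All these values are over 18 livers that share library preparation and scaling. In the GDF15 group the ranges of replicates 1 to 3 and of 4 to 6 did not overlap for several of these genes. They were 18382 to 21364 and 25245 to 30731 for Elovl5, and 34725 to 39820 and 29382 to 32682 for Fads2. For Elovl2 they were 20512 to 22026 and 24031 to 27549, and for Fads1 25579 to 27182 and 23505 to 25340. For Acsl5 they were 11641 to 12393 and 13320 to 17096. Elovl6 and Scd1 were split in the same way. The GDF15 ranges overlapped for Elovl1, Elovl3, Scd2, Acsl1 and Lpcat3. Control livers were split for some genes too. In vehicle livers the ranges were 32578 to 38820 and 41032 to 44475 for Fads2, the reverse of the GDF15 order. They were 22174 to 25764 and 25769 to 29734 for Fads1. In pair-fed livers they were 13034 to 17014 and 17948 to 24982 for Acsl1, and 326 to 480.5 and 215.2 to 312.5 for Scd2. The part of these splits in the r values was not tested.

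**Figure D4:**
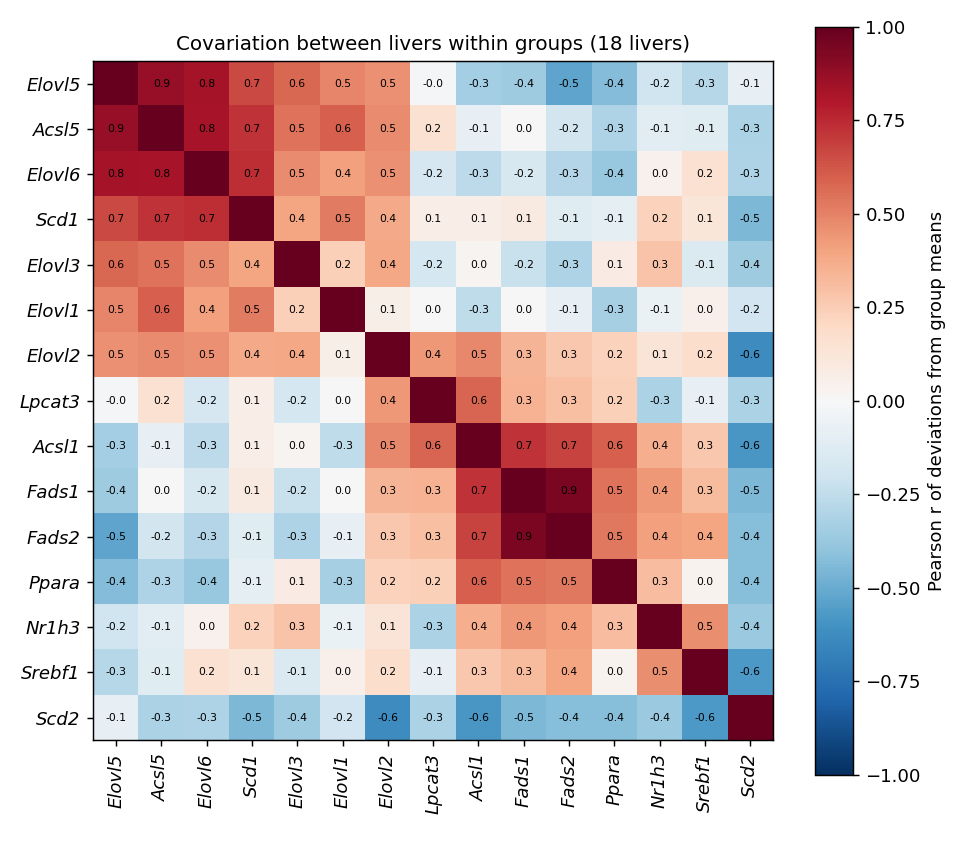
Pearson r, colour and number in each cell, between the deviations of log2 levels from the group means over 18 livers, for the 10 enzymes with Scd1, Elovl6, Srebf1, Nr1h3 and Ppara on both axes. The upper left block holds Elovl5, Acsl5, Elovl6 and Scd1, and the middle block Acsl1, Fads1 and Fads2. Scd2 has a negative r with every other gene, from -0.08 with Elovl5 to -0.63 with Elovl2.

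Of genes outside the 10, those whose within-group pattern was most like each enzyme were found by the same measure over 18 livers. For Fads2 they were Cipc (r = 0.95) and Ciart (r = 0.95), both known as repressors of the circadian clock, and Igfbp4 (r = 0.94). Ciart itself ranged widely, with a mean of 88.0 ± 44.3 normalized counts (SD, n = 6) in vehicle livers, 179 ± 97.6 in GDF15 livers and 201 ± 240 in pair-fed livers. For Fads1 they were Atp5b, a subunit of the mitochondrial ATP synthase (r = 0.91), Sult1a1 and Slc25a5. For Elovl5 they included Pnp (r = 0.91) and Gucd1 (r = 0.91), and for Acsl5 they included Me1, the malic enzyme that supplies NADPH for lipid synthesis (r = 0.93), and Aqp8 (r = 0.89).

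Elovl2 was most like Tlcd1 (r = 0.86), whose product limits polyunsaturated acids in membranes, followed by Rmnd5a and Neurl2. Tlcd1 also rose with GDF15, from 1345 ± 154 normalized counts (SD, n = 6) in vehicle and 1400 ± 208 in pair-fed livers to 1838 ± 334 (DESeq2 adjusted p = 0.00117 and 0.00672). Elovl3 was most like Lonp2, a peroxisomal protease (r = 0.88), with Naa25 and Pafah1b1. Scd2 was most like Necap2 (r = 0.90), Tagln2 and Ly86, a myeloid gene (both r = 0.88). Ly86 fell from 100.4 ± 26.0 normalized counts in vehicle livers to 56.7 ± 15.8 in GDF15 livers (adjusted p = 0.000435). The nearest genes were Mrps28, Tbrg1 and Brox for Elovl1, Akr1c12, Tprkb and Eif4a2 for Acsl1, and Rbm17, Mkrn2 and Fbxo21 for Lpcat3. Likeness within groups did not always go with a like change between groups. Against vehicle, Pnp, near Elovl5, was called higher (log2 fold change 0.37, DESeq2 adjusted p = 0.00183). So were Igfbp4, near Fads2 (0.36, 0.0181), and Sult1a1, near Fads1 (0.62, 2.05e-07).

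The rest of the pathway was followed in 7 lists of 100 genes in all, of which 23 were lower and 13 higher in GDF15 against vehicle livers and 20 lower and 11 higher against pair-fed. These counts, and those of each list, stand beside 17.5% lower and 15.8% higher of all genes against vehicle and 13.8% and 13.3% against pair-fed, and no list was tested against other genes. Pair-fed against vehicle called 0 of them. Among the other 9 genes of elongation, 4 were lower against vehicle and 3 against pair-fed, and none was higher. Hsd17b12, the reductase of the elongation cycle, fell from 4423 ± 209 normalized counts (SD, n = 6) to 3769 ± 311 (log2 fold change -0.23, DESeq2 adjusted p = 0.00318). Hacd1, a dehydratase of the cycle, had a log2 fold change of -0.25 (adjusted p = 0.0389), a call lost in the 12 compared libraries alone (0.0709) and with the replicate block (0.0777). Elovl6 stood at 4688 ± 1315 in vehicle and 5126 ± 2600 in GDF15 livers (adjusted p = 0.766).

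Of 10 other desaturases and their electron carriers, 1 was lower against vehicle and none against pair-fed. It was Fads3, at 81.8 ± 30.1 normalized counts in vehicle and 52.4 ± 8.88 in GDF15 livers (log2 fold change -0.65, DESeq2 adjusted p = 0.00966), which shares sequence with Fads2. Its call was lost with 3 replicates a group (adjusted p = 0.114 for replicates 1 to 3 and 0.140 for replicates 4 to 6). Scd1 had a log2 fold change of -0.34 (SE 0.17) and did not pass (adjusted p = 0.103). Of 17 other synthetases and fatty acid transport proteins, 1 was lower and 2 higher against vehicle, and 3 and 2 against pair-fed. Cd36, a fatty acid uptake receptor, fell from 5699 ± 363 to 3298 ± 779 (log2 fold change -0.79, adjusted p = 2.89e-08). Slc27a5, which also activates bile acids to their CoA esters, rose from 15811 ± 2647 to 23690 ± 1151 (0.58, adjusted p = 7.69e-07), and Acsm1, a medium-chain synthetase, rose by 0.46.

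Of 13 other lysophospholipid acyltransferases, 4 were lower and 1 higher against vehicle, and 3 and 0 against pair-fed. Lpcat2, the form found in inflammatory cells, fell from 90.8 ± 26.5 to 40.6 ± 12.9 normalized counts (log2 fold change -1.16, DESeq2 adjusted p = 1.49e-05). Lpcat1 fell by 0.51 on the log2 scale (adjusted p = 0.00676). Mboat7, which places arachidonic acid into phosphatidylinositol, was called higher by 0.12 (adjusted p = 0.0202), a direction that turned with total-count scaling (-0.05).

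Of 15 genes of peroxisomal chain shortening, 5 were lower and none higher in each GDF15 comparison. Acaa1b, a peroxisomal thiolase, fell from 55551 ± 3444 to 35676 ± 6185 normalized counts (log2 fold change -0.64, DESeq2 adjusted p = 3.30e-07), and Pex11a, which acts in peroxisome division, fell by 0.41 on the log2 scale (adjusted p = 0.0351, and 0.0667 with the replicate block). Of 17 phospholipases A2 and oxylipin enzymes, 5 were lower against vehicle and 4 against pair-fed, and none was higher. Pla2g7 fell by 0.77 on the log2 scale (adjusted p = 0.00552) and Tbxas1, thromboxane synthase, by 0.62 (0.0131), both known from macrophages, and the part of the lower macrophage markers in these falls and in that of Lpcat2 was not tested.

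The regulator list of 19 genes also held Tmem135, Tlcd1, Tlcd2 and Pemt, which are not regulators of transcription. Tlcd1, given above, was called higher in both GDF15 comparisons. Of the 19 genes, 10 were higher and 3 lower against vehicle, and 9 higher and 2 lower against pair-fed. With total-count scaling these counts were 5 higher and 3 lower against vehicle and 3 and 3 against pair-fed, where 4.72% of all genes were higher and 32.3% lower against vehicle and 4.36% and 30.9% against pair-fed. Nr1h3 rose from 1946 ± 124 normalized counts (SD, n = 6) to 2277 ± 71.4 (log2 fold change 0.23, DESeq2 adjusted p = 4.56e-05), with all 6 GDF15 livers above all 6 vehicle livers. This depended on the scaling. As TPM the groups overlapped, at 76.1 ± 3.71 in vehicle, 78.7 ± 4.18 in GDF15 and 77.9 ± 3.50 in pair-fed livers. Scap, the escort protein of SREBP, rose by 0.64 on the log2 scale (adjusted p = 0.000376). Ppargc1a, a coactivator of oxidative genes, rose by 0.77 (adjusted p = 0.00440), from 166 to 280 normalized counts in vehicle livers to 217 to 737 in GDF15 livers. Its log2 fold change was 0.16 in replicates 1 to 3 (adjusted p = 0.467) and 1.20 in replicates 4 to 6 (0.000307). Pparg, a receptor that drives lipid storage, fell from 648 ± 78.2 to 313 ± 54.4 (log2 fold change -1.05, adjusted p = 1.50e-18), and Insig2, which retains SCAP in the endoplasmic reticulum, fell by 0.60 (adjusted p = 0.0356). The Insig2 call was lost with edgeR (-0.61, adjusted p = 0.0570), with the replicate block (0.0688) and with replicates 4 to 6 (-0.27, 0.512). Srebf1 stood at 6956 ± 850 in vehicle, 8681 ± 1409 in GDF15 and 9338 ± 2828 in pair-fed livers (adjusted p = 0.130 against vehicle), and Ppara at 1976 ± 316, 2170 ± 313 and 2219 ± 362 (adjusted p = 0.440). The median log2 fold change of the regulator list against vehicle was 0.29, that of the elongation genes -0.10 and that of all genes 0.00.

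**Figure D5:**
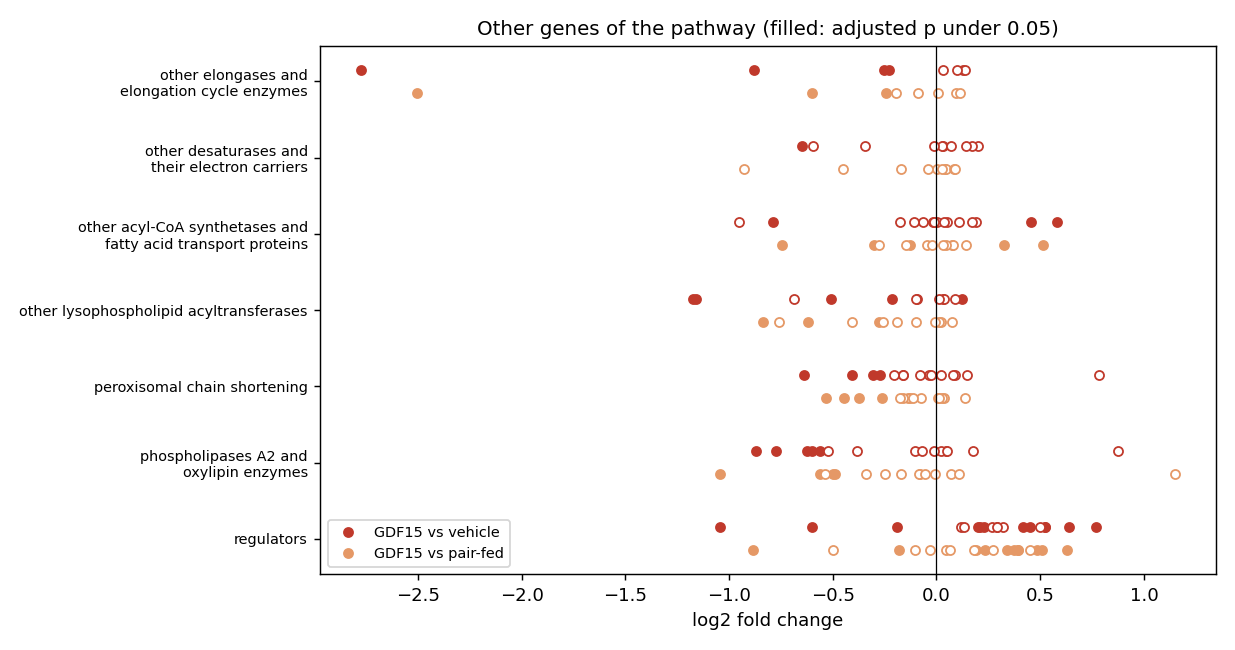
Log2 fold changes (x axis) of the other genes of the pathway in 7 lists (y axis) for GDF15 against vehicle and against pair-fed livers, filled where the DESeq2 adjusted p was under 0.05. Filled points lie below 0 in the elongation, desaturase, peroxisome and phospholipase lists. They lie mostly above 0 in the regulator list, where total-count scaling called 5 higher and 3 lower against vehicle.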

How the data were processed

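Liver RNA was sequenced in 6 vehicle, 6 GDF15 and 6 pair-fed mice from a directional kit. The authors trimmed reads with Trim Galore and quantified them with Salmon on build mm10, per the submitters' notes, and deposited estimated counts per gene as whole numbers that are not scaled; versions are not given in the sources used here. Groups and replicate numbers came from the sample titles. The lowest row total was 5, so rarer genes were not analysed here.

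The study's methods name DESeq2 and, for liver, an adjusted p under 0.05 with an absolute log2 fold change above 1. Here counts of all 18 samples were fitted in DESeq2 1.42.0 (R 4.3.3) with group as the factor, the Wald test, size factors by the median of ratios, independent filtering and Benjamini-Hochberg adjustment over all genes. A call needed an adjusted p under 0.05 with no fold threshold, and counts with the study's fold threshold are given beside it. Levels between genes were set on a TPM scale from the median GENCODE length of the protein-coding transcripts of each gene. Ratios used log2 of counts + 1 and exact two-sided permutation tests over 924 splits. Each mouse is 1 library without molecular identifiers.

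Alternatives were edgeR 4.0.16, TMM and total-count scaling, a filter of 10 counts in 6 samples, no independent filtering, the compared samples alone, a replicate block, replicates 1 to 3 or 4 to 6 alone, and each library left out. The script was tested on simulated data. The enzymes, lists and alternatives were chosen with earlier results of these data known. All enzymes were named, with up to 2 falling and 2 rising genes of each list by fold change (mean count at least 50, called against vehicle), the 3 genes most like each enzyme (1 item that this rule names is not reported here), and Srebf1, Nr1h3, Ppara, Scd1 and Elovl6.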

Additional observations from a re-analysis of the deposited data

How the results depend on the processing

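Under the alternatives run, 1086 of 1203 values of the enzymes, listed genes and ratios kept their direction and their side of the threshold. With the fold rule the enzymes called lower and higher were 1 and 1 against vehicle and 0 and 0 against pair-fed. Total-count scaling called 7 enzymes lower in each comparison and, of the other listed genes, 35 lower and 7 higher against vehicle and 34 and 4 against pair-fed, and turned Mboat7 against vehicle (-0.0497) and Acsl1 against pair-fed (-0.0660), which the shift of the median gene by -0.17 and -0.16 brings with it. Replicates 1 to 3 alone gave 2 enzymes (Elovl2 and Acsl1) and 18 other listed genes higher against pair-fed, beside 1517 of all 13081 genes tested. They turned Fads1 (0.12) and Fads2 (0.0100) against vehicle, Fads1 (0.16) against pair-fed, and Elovl2 (-0.0423), Scd2 (0.0920), Lpcat3 (-0.0520) and Scd2 to Fads2 (0.12) in pair-fed against vehicle. Replicates 4 to 6 alone gave 2 enzymes (Elovl2 and Elovl3) and 6 other listed genes higher against pair-fed, beside 1086 of all 13075 genes tested. They turned Acsl5 (0.13) against vehicle, Elovl5 (0.11), Acsl1 (-0.24), Acsl5 (0.14) and Acsl5 to Acsl1 (0.39) against pair-fed, and Fads1 (0.0308) and Acsl5 (-0.00769) in pair-fed against vehicle. For Acsl5 in pair-fed against vehicle edgeR gave -0.00306, TMM -0.000702 and total counts -0.000244, and Fads1 in the 12 compared samples gave 0.00202. The cause of these turns was not tested. With 3 libraries a group the exact test of a ratio cannot go below 0.1.

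Leaving out 1 library at a time gave 1 to 3 enzymes higher against vehicle (1 without GDF15 replicate 6) and 1 to 2 against pair-fed (2 without GDF15 replicate 3 or pair-fed replicate 2). Over all genes tested, 2038 of 14666 were higher against vehicle without GDF15 replicate 6. Against pair-fed 1829 of 13724 were higher without GDF15 replicate 3 and 1587 of 14353 without pair-fed replicate 2. Fads1 ranged from -0.0578 to 0.0269 against vehicle, -0.0552 to 0.0481 against pair-fed and -0.0661 to 0.0428 in pair-fed against vehicle, where Scd2 ranged from -0.211 to 0.0759, Acsl5 from -0.0300 to 0.0390 and Lpcat3 from -0.0152 to 0.0593. Ratios that passed in some of these tests were Acsl5 to Acsl1 against vehicle (-0.579 to -0.361, passing without GDF15 replicate 4), Elovl3 to Elovl1 against vehicle (1.26 to 1.88, without vehicle or GDF15 replicate 3) and against pair-fed (0.911 to 1.53, without GDF15 replicate 3), and Scd2 to Fads2 against vehicle (-0.992 to -0.694, without vehicle replicate 3 or GDF15 replicate 1).

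The main fits did not treat the replicate numbers as pairs. The same-number correlation was above 0.1 in 2, 3 and 4 of 6 pairs of GDF15 with vehicle, GDF15 with pair-fed and pair-fed with vehicle. The lowest values were -0.25, -0.26 and 0.04, the highest 0.27, 0.20 and 0.60. Their means were -0.03, 0.03 and 0.20, beside 0.009, -0.005 and -0.04 between other numbers. In these comparisons 0, 2 and 1 of 6 samples correlated best with their own number. A shared order or batch was not tested. With the replicate block no call of the 10 enzymes changed, at 3 lower and 3 higher against vehicle and 3 and 1 against pair-fed, while Hacd1, Mboat7, Pex11a and Insig2 lost theirs against vehicle. Sign-flip tests with the block kept the values of Fads1 to Fads2 (0.20 and 0.30) and Elovl2 to Elovl5 (0.88 and 0.70) at an adjusted p of 0.0781, where the smallest unadjusted p is 0.0312.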

Other observations

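Together the 10 enzymes took 0.740% ± 0.0279 (SD, n = 6) of all counts in vehicle livers, 0.659% ± 0.0301 in GDF15 livers and 0.759% ± 0.0482 in pair-fed livers. Shares of a library depend on the level of every other gene in it.

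Another 2 elongation genes lay under the level set for naming genes and are given here because of their values, so that their choice followed from the data. Elovl7, a further elongase, stood at 67.2 ± 29.0 normalized counts (SD, n = 6) in vehicle livers, 9.71 ± 4.94 in GDF15 livers and 56.2 ± 25.1 in pair-fed livers, a log2 fold change of -2.77 (SE 0.39) against vehicle and -2.50 (SE 0.39) against pair-fed in DESeq2. Each GDF15 liver lay below the lowest vehicle (33.8) and pair-fed (23.3) livers. Hacd4, a dehydratase of the elongation cycle, stood at 59.1 ± 12.9, 32.2 ± 9.49 and 49.2 ± 9.59, a log2 fold change of -0.88 (SE 0.21) against vehicle.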
